A study of Rattus norvegicus with 6 samples.

Results

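The conjugating enzymes described here are the rat genes of the UDP-glucuronosyltransferase (Ugt1 and Ugt2), glutathione S-transferase (Gst), microsomal glutathione S-transferase (Mgst), sulfotransferase (Sult) and carboxylesterase (Ces) families. They were chosen by name: every gene symbol of these families that stood alone on a row of the array annotation was taken, which gave 47 genes of the 14506 tested. Of these, 7 were Ugt2 genes, 17 Gst, 2 Mgst, 11 Sult and 10 Ces genes, and no Ugt1 gene had a row to itself. RNA came from the ileum, the distal stretch of the small intestine, of 6 Zucker fa/fa rats aged 20 weeks, which are obese because their leptin receptor is defective, in both groups alike. In 3 rats a duodenum-jejunum bypass (DJB) led food past the duodenum and upper jejunum, and the 3 sham rats underwent similar surgery with the gut rejoined in its normal course. Tissue was taken 14 days after surgery, and each rat was measured on 1 Affymetrix whole-transcript array, with RNA from frozen ileum and not from isolated cells. The levels given are on a log2 scale after RMA, a normalisation that puts arrays on a common scale. Differences are DJB minus sham on that log2 scale with their standard error (SE), and a gene is said to have fallen or risen where the adjusted p of its limma test, over 14506 genes, was under 0.05.

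These families handle drugs, plant compounds, steroids, bile acids and reactive products of metabolism. UDP-glucuronosyltransferases sit in the endoplasmic reticulum and attach glucuronic acid from UDP-glucuronate, sulfotransferases attach sulfate from the donor PAPS, and glutathione S-transferases attach the tripeptide glutathione to electrophiles. Carboxylesterases do not conjugate but split esters and amides, often exposing the group that is then conjugated. In the gut many of these enzymes act in enterocytes, whose export pumps carry the conjugates to the lumen or the blood.

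Ugt2a3, a glucuronosyltransferase of enterocytes, fell 5.98-fold after DJB and was the single gene of the 47 that passed the adjusted threshold (1 lower, 0 higher), where 0.772% of all genes tested passed, 0.379% lower and 0.393% higher. At an unadjusted limma p under 0.05 there were 11 lower and 2 higher (23.4% and 4.26%, beside 4.45% and 9.82% of all genes). The next differences in size were those of the glutathione transferase genes Gsta3 (-0.99 ± 0.22), Gstm1 (-0.73 ± 0.19), Gstm2 (-0.59 ± 0.12) and Gsta4 (-0.59 ± 0.11) and of the carboxylesterase gene Ces2a (-0.51 ± 0.12). The Sult genes differed by -0.22 to 0.18. In bulk tissue, fewer cells of a type and less RNA per cell cannot be told apart.

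The promoters of Ugt2a3 and of the 3 glutathione transferase genes with the largest differences are shown, picked by the size of those differences. Of these genes only Ugt2a3 passed. Gstm1 and Gstm2 are next to each other on chromosome 2. Promoter windows were taken from RefSeq on the assembly GRCr8, where 40 of the 47 genes had an entry, and the 250 bases before each start are printed 5′ to 3′. Capitals mark matches, on either strand, to 6 short motifs that were searched.
Ugt2a3, chr14:20851720-20851969, plus strand: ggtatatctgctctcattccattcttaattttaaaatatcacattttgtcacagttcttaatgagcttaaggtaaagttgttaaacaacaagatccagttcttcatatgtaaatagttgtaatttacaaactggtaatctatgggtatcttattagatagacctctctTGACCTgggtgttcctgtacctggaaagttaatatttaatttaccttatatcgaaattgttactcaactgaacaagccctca
Gsta3, chr9:31154739-31154988, plus strand: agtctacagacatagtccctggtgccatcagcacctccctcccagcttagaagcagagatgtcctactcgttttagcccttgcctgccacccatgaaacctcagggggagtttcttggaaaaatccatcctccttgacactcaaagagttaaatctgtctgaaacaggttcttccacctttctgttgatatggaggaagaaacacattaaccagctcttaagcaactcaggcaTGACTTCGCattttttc
Gstm1, chr2:198343384-198343633, minus strand: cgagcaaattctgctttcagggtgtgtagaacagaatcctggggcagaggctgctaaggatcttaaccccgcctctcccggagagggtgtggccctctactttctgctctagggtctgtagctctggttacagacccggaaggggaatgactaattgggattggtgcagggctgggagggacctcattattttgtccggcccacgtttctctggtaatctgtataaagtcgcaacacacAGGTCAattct
Gstm2, chr2:198316918-198317167, minus strand: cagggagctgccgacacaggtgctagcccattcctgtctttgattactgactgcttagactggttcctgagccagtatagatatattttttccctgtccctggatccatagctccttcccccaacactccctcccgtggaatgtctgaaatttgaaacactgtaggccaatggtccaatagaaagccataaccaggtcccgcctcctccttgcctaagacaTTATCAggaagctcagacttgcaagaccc

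The motifs were searched on both strands from 250 bases before to 50 after the start, in the 40 genes and in 27457 promoters of the rat. The capitals in Ugt2a3 and Gstm1 are the nuclear receptor hexamer AGGTCA, at -82 on the reverse strand and at -11 on the forward strand. It was in 4 of the 40 windows (10.0%) and in 15.7% of all promoters. The capitals in Gsta3 are the core of the antioxidant response element, TGACNNNGC, at -17, which 6 of the 40 windows held (15%, against 12.2% of all promoters): Gsta1, Gsta3, Gstm5, Gstm7, Gstp1 and Ces2g. Those in Gstm2 are a GATA form, TGATAA, at -29 on the reverse strand, present in 5 of 40 windows (12.5%) and in 8.89% of all. The aryl hydrocarbon receptor core GCGTG was in 6 of 40 windows (15%) and 31.1% of all, with 3 matches in Gsta4. The HNF4 motif CAAAGTCCA was in 0 of 40 windows (0.375% of all) and the HNF1 motif in 1, that of Ces5a (0.120% of all). A match of letters is a description and was not tested as a binding site. No motif searched was common to the 4 promoters shown.

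Within the UDP-glucuronosyltransferases, Ugt2a3 lay at 7.83, 8.55 and 8.16 in the sham rats and at 5.96, 5.73 and 5.10 in the DJB rats. Each DJB value was below every sham value, and the nearest pair, DJB 1 and sham 1, were still well apart. The means were 8.18 ± 0.36 (SD, n = 3) and 5.60 ± 0.44 (SD, n = 3). The difference of -2.58 ± 0.23 had a 95% interval from -3.11 to -2.05 and a limma adjusted p of 0.0016. The DJB mean was under 6, a level at which summarised array values understate folds.

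The other 6 Ugt2 genes all had means under 6 over the 6 arrays, between 3.28 and 4.31, and none passed. Ugt2a1, the olfactory member closest in name, differed by 0.08 ± 0.14. Among the Ugt2b genes the lowest difference was that of Ugt2b37 (-0.50 ± 0.17, adjusted p = 0.245) and the highest that of Ugt2b (0.31 ± 0.11, adjusted p = 0.259), and in both the groups did not overlap. At such levels these values bear little on whether the genes are expressed.

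Ugt2a3 lies in a cluster on chromosome 14 where Ugt2 genes stand beside Sult1 genes in the RefSeq order. Its neighbour on the side of the sulfotransferases is Ugt2a1, followed by Sult1b1, which sulfates phenols and thyroid hormones, and by Sult1d1. Sult1b1 lay at 9.57, 10.01 and 9.85 in sham and at 9.69, 9.76 and 9.61 after DJB. The groups overlapped, and the 95% interval of its difference, from -0.40 to 0.15, lay wholly above that of Ugt2a3. On the other side, Ugt2b is the nearest gene with a row used. The differences between these genes were not themselves tested.

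**Figure D1:**
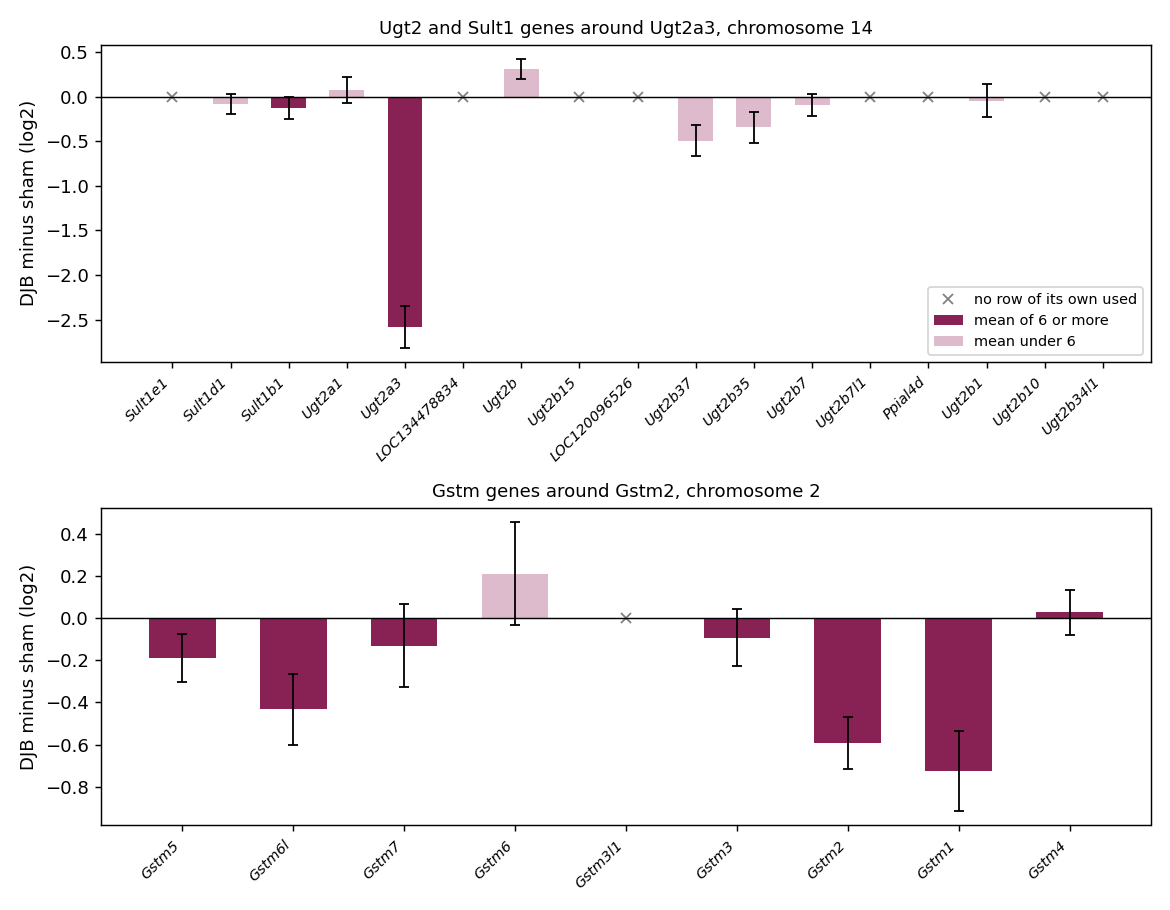
Differences between DJB and sham (log2, bars with SE, 3 arrays per group) for genes in RefSeq order along chromosome 14 around Ugt2a3 (top) and along chromosome 2 around Gstm2 (bottom). Pale bars are genes with a mean under 6 and crosses are genes with no row used. Ugt2a3 stands at -2.58 between measured neighbours, both with means under 6, that differ by 0.08 and 0.31. The row shared by Ugt2b15 and Ugt2b37, which was also lower, is not drawn. Gstm2 and Gstm1 at -0.59 and -0.73 lie between Gstm3 and Gstm4 at -0.09 and 0.03.

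A row that carries 2 Ugt2b symbols, Ugt2b15 and Ugt2b37, and so stands for no single gene, was also lower. Both symbols belong to the cluster around Ugt2a3, at places 3 and 5 from it in the RefSeq order. It lay at 6.03, 6.75 and 6.40 in sham and at 5.13, 4.92 and 4.64 after DJB, with all DJB values below all sham values. The difference of -1.50 ± 0.20 passed when all 29214 rows of the table were tested (limma adjusted p = 0.0344). The Ugt1 genes share their last exons, and the row that stands for 8 of them together lay at 9.26, 9.42 and 9.33 in sham and at 9.59, 9.47 and 9.26 after DJB. The Ugt1 groups overlapped, with a difference of 0.10 ± 0.12 (adjusted p over all rows 0.777).

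The cytosolic glutathione S-transferases are named by class, and all 3 alpha class genes measured were lower after DJB. Gsta3 was nearly level in the sham rats at 7.61, 7.66 and 7.55 and lay at 7.14, 6.61 and 6.11 after DJB. The DJB rats were all lower but spread widely (SD 0.52, against 0.06 in sham), from DJB 1 as the highest to DJB 3 as the lowest. Its difference did not pass (limma adjusted p = 0.0950). It passed without DJB 1 (-1.25, adjusted p = 0.0116), but not without any 1 of the other rats (adjusted p from 0.112 to 0.241).

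Gsta4, which clears hydroxynonenal and other products of lipid peroxidation, lay at 8.45, 8.46 and 8.68 in sham and at 8.0, 8.06 and 7.78 after DJB. The groups were tight and did not overlap. Its difference of -0.59 ± 0.11 had an adjusted p of 0.0589, just outside the threshold. It passed after median centring of the arrays (adjusted p = 0.0456) or when quantile normalisation was repeated (adjusted p = 0.0407). With any 1 rat left out it did not pass (limma adjusted p from 0.106 to 0.201). The other row of Gsta4 gave -0.54, again with no overlap. Gsta1 had a mean of 5.86, the highest among the genes under 6 (the lowest above it was 6.23, that of Gstt1), and differed by -0.28 ± 0.16. A pair of rows that each carry 2 other alpha class symbols were lower too. The first row lay at 10.57, 10.81 and 10.33 in sham and 9.94, 9.30 and 9.61 after DJB, and the second at 7.83, 8.51 and 8.11 against 7.52, 7.06 and 7.39. Both rows had groups that did not overlap, but neither passed over all rows (-0.95 ± 0.19, adjusted p = 0.101; -0.83 ± 0.19, adjusted p = 0.167).

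The mu class genes form a run on chromosome 2, and 6 of the 8 measured were lower. Gstm1 lay at 9.10, 8.64 and 9.23 in sham and at 8.44, 8.45 and 7.91 after DJB. Gstm2 lay at 9.03, 8.58 and 8.87 in sham and at 8.28, 8.27 and 8.16 after DJB. In both genes sham 2 was the lowest sham rat, with all DJB values below it, and neither passed (adjusted p = 0.144 and 0.0802). Their neighbour Gstm4 lay at 8.73, 8.73 and 8.93 in sham and at 8.94, 8.82 and 8.71 after DJB. Its groups overlapped, and its 95% interval, from -0.21 to 0.27, did not reach the difference of Gstm1 or Gstm2. Gstm6l (-0.43 ± 0.17) and Gstm5 (-0.19 ± 0.11) also had groups that did not overlap, Gstm3 and Gstm7 differed by -0.09 and -0.13, and Gstm6, with a mean of 4.59, by 0.21. Mu class sequences are alike, so that probes of a row may catch messages of more than 1 gene.

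The remaining classes held genes on both sides. Gsto1, an omega class enzyme that reduces dehydroascorbate, lay at 10.63, 10.48 and 10.54 in sham and at 10.20, 10.37 and 10.28 after DJB (-0.27 ± 0.10, adjusted p = 0.256), with no overlap. Gstp1, the pi class enzyme, lay at 10.59, 10.60 and 10.58 in sham and at 10.72, 10.81 and 10.66 after DJB. It was slightly higher in each DJB rat (0.14 ± 0.09, adjusted p = 0.514), and its sham values were nearly level (SD 0.01). Gstk1, the kappa class enzyme of mitochondria and peroxisomes, was at 8.31, 8.32 and 8.43 in sham and at 8.81, 8.63 and 8.49 after DJB (0.29 ± 0.11, adjusted p = 0.279). Gstp1 and Gstk1 were the only Gst genes that were higher with no overlap. Gstt1, Gstt2 and Gsto2 differed by 0.03, -0.15 and -0.04, with overlapping groups.

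The microsomal transferases Mgst1 and Mgst2 are membrane proteins of another lineage, and Mgst2 can also make cysteinyl leukotrienes. Mgst2 lay at 11.22, 11.31 and 11.28 in sham and at 11.02, 10.77 and 10.92 after DJB, with no overlap and a difference of -0.37 ± 0.10 (adjusted p = 0.155). Mgst1 lay at 10.70, 10.72 and 10.86 in sham and at 10.13, 10.32 and 10.74 after DJB. DJB 3 fell among the sham values while DJB 1 and DJB 2 were lower (-0.36 ± 0.15, adjusted p = 0.319).

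**Figure D2:**
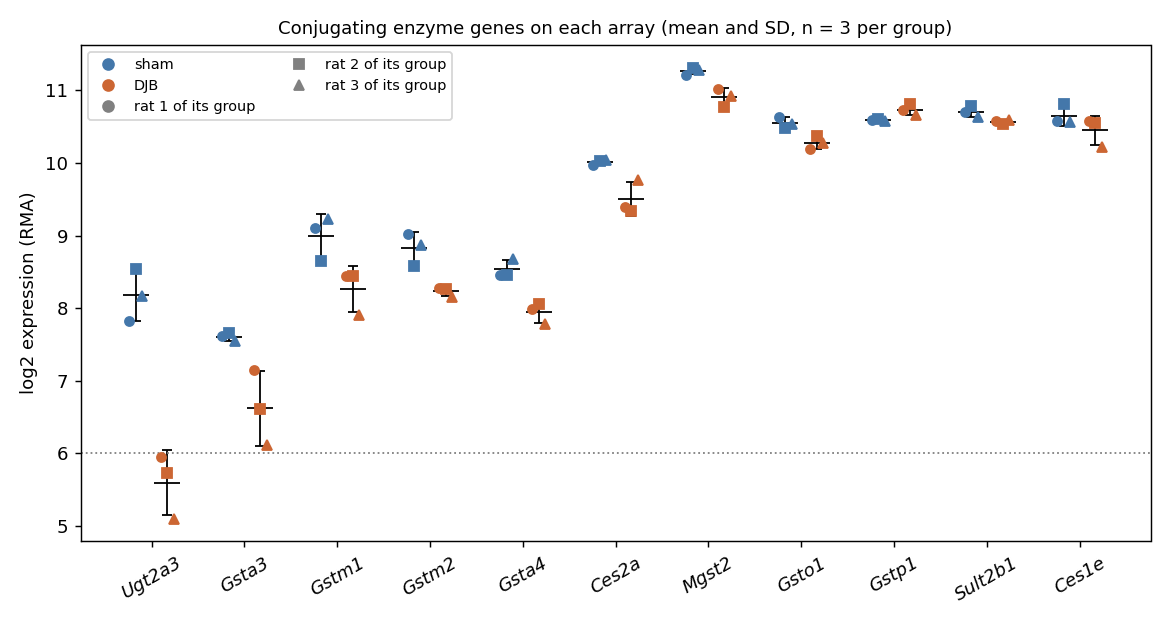
Log2 expression of 11 conjugating enzyme genes in each sham (blue) and DJB (orange) rat, with marker shapes for the rat number within its group and black bars for the mean and SD (n = 3 per group); the dotted line is a level of 6. Ugt2a3 moves from between 7.83 and 8.55 to between 5.10 and 5.96, Gsta3 spreads in the DJB rats, and Gstp1 is slightly higher.

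Among the sulfotransferases the median of the absolute differences was 0.10, and 7 of 11 genes had means under 6. Sult2b1, which sulfates cholesterol and related sterols, lay at 10.70, 10.78 and 10.64 in sham and at 10.57, 10.53 and 10.59 after DJB. The groups were close but did not overlap (-0.14 ± 0.09, adjusted p = 0.519), with an interval from -0.34 to 0.06. Sult1a1, the phenol sulfotransferase, differed by -0.14 ± 0.10 and Sult1c2 by 0.18 ± 0.17. The bile acid and steroid sulfotransferase genes Sult2a1 and Sult2a2 had means of 2.83 and 3.06, near the bottom of the scale, and differed by 0.09 and 0.02. The remaining low rows were Sult1c3, Sult1d1, Sult4a1, Sult5a1 and Sult6b1, between -0.22 for Sult6b1 and 0.08 for Sult5a1. Sult1e1, whose row lists that symbol for 2 gene IDs, was not counted among the 47 genes and lay at 2.57 in sham and 2.48 after DJB (-0.09 ± 0.14).

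Carboxylesterases went both ways, with 6 of 10 lower and a median of -0.05. Ces2a lay at 9.97, 10.03 and 10.04 in sham and at 9.40, 9.34 and 9.77 after DJB. All DJB values were lower, and DJB 3 was nearest to sham (limma adjusted p = 0.126, and 0.0495 without DJB 3). Without any 1 of the other rats its adjusted p was 0.258 to 0.316. Ces1e lay at 10.58, 10.82 and 10.56 in sham and at 10.58, 10.55 and 10.22 after DJB, with overlap and a difference of -0.20 ± 0.13. Ces2c lay at 8.42, 8.83 and 8.96 in sham and at 8.83, 8.40 and 7.70 after DJB, with DJB 1 inside the sham range, DJB 2 just under it and DJB 3 far below (-0.42 ± 0.26). Ces2g was higher at 0.34 ± 0.20 (9.16, 9.48 and 9.02 in sham, 9.44, 10.02 and 9.20 after DJB), and its other row gave 0.98 ± 0.40. Both Ces2g rows had overlapping groups. Ces1d and Ces1f differed by 0.17 and -0.03, and the low rows Ces1c, Ces2e, Ces4a and Ces5a by -0.17 to 0.08. A row with 3 carboxylesterase symbols lay at 5.97, 5.94 and 6.03 in sham and at 5.56, 5.42 and 5.17 after DJB (-0.59 ± 0.12, adjusted p over all rows 0.115), lower in each DJB rat.

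**Figure D3:**
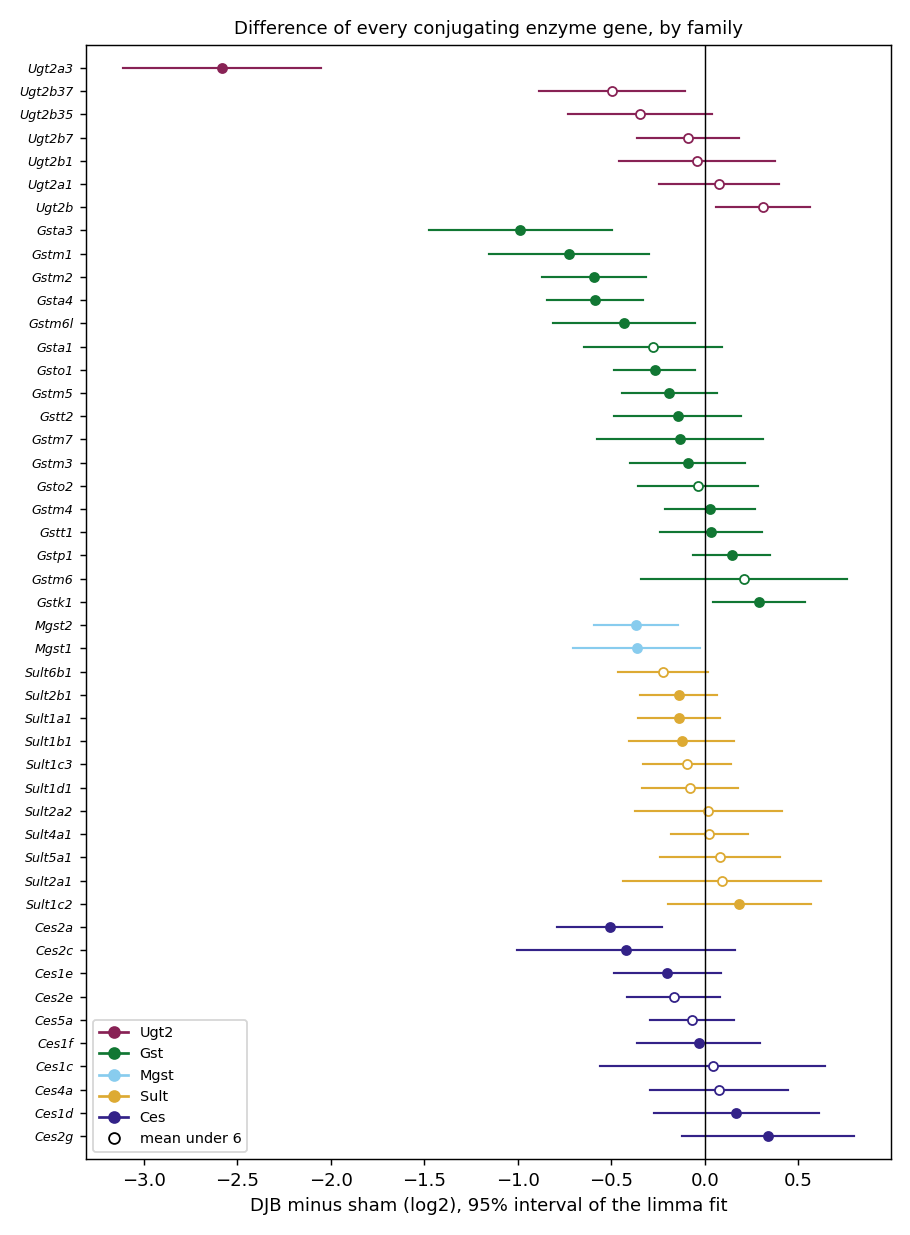
DJB minus sham on the log2 scale for all 47 genes, sorted within each family, with 95% intervals of the limma fit (3 arrays per group); open circles are genes with a mean under 6. Ugt2a3 stands apart at -2.58, the next lowest is Gsta3 at -0.99, and the highest is Ces2g at 0.34.

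Across the 47 genes, 31 were lower after DJB (66.0%), where 38.3% of all genes tested were lower. The groups did not overlap in 13 that were lower and 3 that were higher, or 27.7% and 6.38%, beside 6.56% and 14.5% of all genes. Among the 27 genes with a mean of at least 6, 20 were lower and 11 of these had no overlap, where 40.8% and 8.97% of genes at such levels did. The 20 genes under 6 held 2 that were lower with no overlap (Ugt2b37 and Sult6b1) and 1 that was higher (Ugt2b), beside 6.56% and 14.5% of all genes at any level. A difference of at least 0.5 with no overlap was seen in 6 genes, all lower (12.8%, beside 1.03% of all genes), and in 0 that were higher (1.14% of all genes). The median difference was -0.10 over the 47 genes and 0.05 over all genes, and by family it was -0.09 in Ugt2, -0.15 in Gst, -0.37 in Mgst, -0.08 in Sult and -0.05 in Ces. Single rats moved these medians: without DJB 1 that of the 47 genes was -0.18 and that of all genes 0.0096. Leaving out sham 1 gave medians of -0.24 in Ugt2 and -0.09 in Ces, and leaving out sham 2 gave -0.23 in Gst, -0.03 in Sult and -0.10 in Ces. With sham 3 left out they were -0.09 in Gst, -0.04 in Sult and -0.02 in Ces. With DJB 1 left out they were -0.18 in Ugt2, -0.13 in Sult and -0.21 in Ces, and with DJB 3 left out -0.02 in Ugt2, -0.04 in Sult and 0.018 in Ces, where the sign turned. Of these family medians, only that of Ces without DJB 1 moved by more than the spread of the family mean between rats of a group (SD 0.15 for Ces). Genes of a family share sequence and in part a locus, so they are not independent, and these counts carry no test.

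The rats of the DJB group did not share the low values equally. The mean of the 27 genes at 6 or above was 8.63, 8.66 and 8.76 in the sham rats and 8.50, 8.45 and 8.23 in DJB 1 to 3. All 3 DJB rats were below the sham rats on this mean. DJB 3 was the lowest DJB rat in 29 of the 47 genes (61.7%), as it was in 43.5% of all genes, and DJB 1 was the highest in 27 (57.4%), as in 57.6% of all genes. DJB 1 also had the highest mean over all genes tested, 6.87 against 6.73 to 6.75 in the other 5 rats, and 21 of the 47 genes were lower with no overlap without DJB 1 (14.7% of all genes).

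The 5 genes whose levels followed Ugt2a3 most closely over the 6 arrays were Abhd17a (Pearson r = 0.999), Zfp46 (0.992), Tkfc (0.992), Polr2f (0.990) and Phf23 (0.989). They were picked from 14506 genes on 6 arrays that fall into separate groups, so the correlations describe likeness only. Their own differences were smaller, from -0.15 ± 0.09 for Phf23 to -0.64 ± 0.10 for Tkfc, which encodes an enzyme of fructose metabolism and fell (adjusted p = 0.0282).

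Genes that supply the donors went in both directions. Of 10 genes for UDP-glucuronate and PAPS, 5 were higher and 5 lower, and 0 passed limma's adjusted threshold. At an unadjusted limma p under 0.05 there were 2 higher and 3 lower (9.82% and 4.45% of all genes). The groups did not overlap in 2 that were higher and 3 that were lower (14.5% and 6.56% of all genes). Ugp2 and Ugdh, which make UDP-glucose and then UDP-glucuronate, differed by 0.31 ± 0.10 and 0.30 ± 0.11. Papss2, which makes PAPS, lay at 6.50, 6.63 and 6.75 in sham and 6.05, 6.08 and 6.38 after DJB, and Bpnt1, which degrades its by-product, differed by -0.31 ± 0.09. Papss2 and Bpnt1 were lower in each DJB rat without passing (adjusted p = 0.152 and 0.190). Of 14 glutathione genes, 7 were higher and 7 lower, and 0 passed. There was 1 each way at an unadjusted limma p under 0.05, and the groups did not overlap in 0 higher and 1 lower. The shares of all genes are those just given. Gclm, a subunit of the enzyme that limits glutathione synthesis, differed by -0.41 ± 0.13, the glutathione peroxidase gene Gpx2 by 0.43 ± 0.19 and Gpx4 by 0.24 ± 0.12.

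Among the other detoxifying enzymes, 10 of 18 were higher and 8 lower, where 38.3% of all genes were lower. The groups did not overlap in 7 that were higher and 1 that was lower (14.5% and 6.56% of all genes). Of the 18, 5 higher and 3 lower had an unadjusted limma p under 0.05 (9.82% and 4.45% of all genes), and 1 fell (0.379% of all genes did). This was Aadac, a deacetylase of the endoplasmic reticulum, at 7.21, 7.36 and 7.0 in sham and 6.49, 5.90 and 6.34 after DJB (-0.95 ± 0.16, adjusted p = 0.0366). Its call ended without DJB 2, DJB 3 or any 1 of the sham rats (reaching an adjusted p of 0.128). The sulfur transferase gene Tst lay at 8.24, 7.99 and 9.36 in sham and at 10.21, 10.85 and 9.45 after DJB. Sham 3 and DJB 3 were nearly level, and its difference of 1.64 ± 0.40 did not pass (adjusted p = 0.124). Nqo1, a quinone reductase, differed by 0.56 ± 0.13 (adjusted p = 0.105). All 5 deconjugating genes measured, among them the glucuronidase gene Gusb (0.08 ± 0.10) and the sulfatase genes Arsb (0.21 ± 0.09) and Arsa (0.08 ± 0.11), were higher, and 0 passed (also 0 at an unadjusted p under 0.05). Over all genes 9.82% were higher at that unadjusted limma p. The groups did not overlap in 1 of them, Arsb (14.5% of all genes were higher with no overlap).

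Transporters of conjugates went in both directions. Abcc3, the basolateral pump for glucuronides, lay at 9.06, 8.85 and 9.01 in sham and at 9.63, 9.55 and 9.56 after DJB and rose by 0.61 ± 0.10 (adjusted p = 0.0289). Abcc2, the apical pump for glucuronide and glutathione conjugates, lay at 7.76, 8.59 and 8.71 in sham and 7.64, 7.22 and 6.81 after DJB. For Abcc2, sham 1 and DJB 1 were close, DJB 3 was lowest, and the difference of -1.13 ± 0.27 did not pass (adjusted p = 0.121). Slc51a, which encodes part of the exporter of bile acids to the blood, differed by 0.37 ± 0.13, and of 12 transporters, of which Slco2b1 is an uptake carrier, 6 were higher and 6 lower. Of the 12, 2 were higher and 1 lower with no overlap (14.5% and 6.56% of all genes). The counts were also 2 and 1 at an unadjusted limma p under 0.05 (9.82% and 4.45% of all genes), and 1 rose (0.393% of all genes did). Of 20 regulators, 7 were higher and 13 lower, with no overlap in 3 and 5 of them (14.5% and 6.56% of all genes). At an unadjusted limma p under 0.05 there were 2 higher and 4 lower (9.82% and 4.45% of all genes), and 1 rose and 1 fell (0.393% and 0.379% of all genes did): Nr1h4, the bile acid receptor FXR, at 0.98 ± 0.15, and Nr1i3, the xenobiotic receptor CAR, at -0.98 ± 0.18 (adjusted p = 0.0275 and 0.0497). Nr1h4 lay at 8.50, 8.48 and 8.56 in sham and at 9.35, 9.87 and 9.25 after DJB. Nr1i3 lay at 7.76, 7.87 and 8.25 in sham and at 7.35, 6.80 and 6.80 after DJB. Neither had overlapping groups. Gata4, a transcription factor of the upper intestine, differed by -1.18 ± 0.23 (adjusted p = 0.0643). The calls of Abcc3, Nr1h4 and Nr1i3 each ended without any 1 of the sham rats (adjusted p up to 0.113, 0.113 and 0.167). The call of Abcc3 also ended without any 1 of the DJB rats, and that of Nr1i3 without DJB 2 or DJB 3 (adjusted p up to 0.174).

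**Figure D4:**
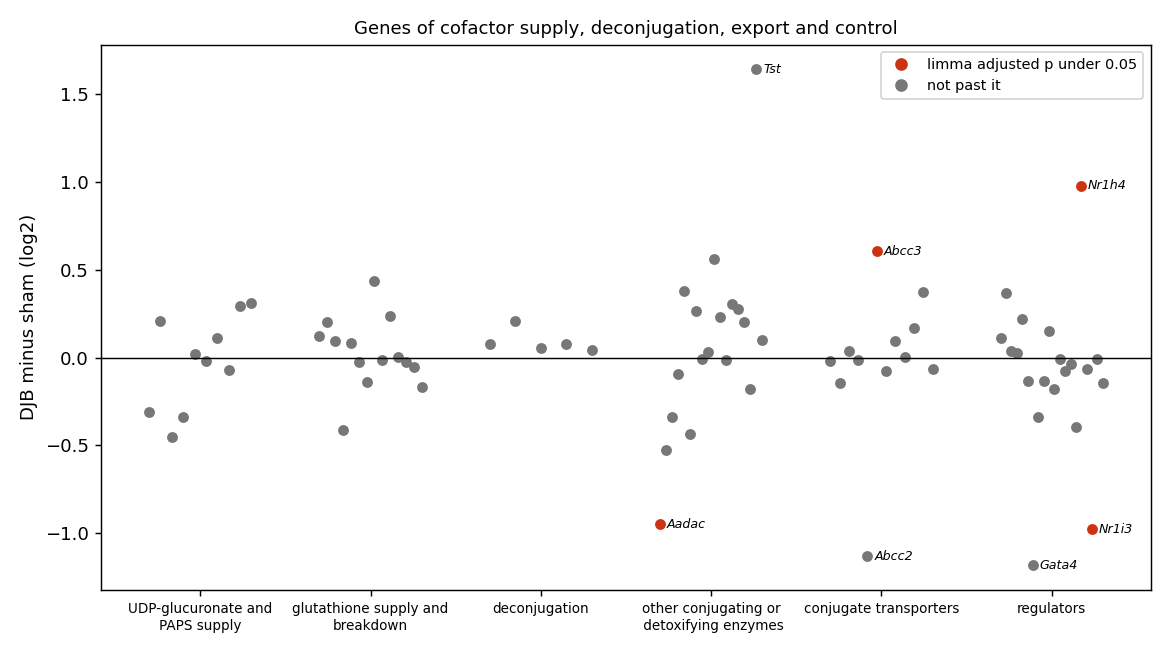
DJB minus sham on the log2 scale for each measured gene of 6 lists around conjugation, with genes past a limma adjusted p of 0.05 in red (3 arrays per group). Aadac at -0.95 and Nr1i3 at -0.98 fell, Abcc3 at 0.61 and Nr1h4 at 0.98 rose, and Tst, Abcc2 and Gata4 are labelled for size without passing.

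The 6 arrays had medians between 6.08 and 6.19, correlated at 0.992 to 0.994 within groups and 0.987 to 0.991 between them, and their number limits the precision. Enterocyte markers fitted the labelled tissue, with a mean level over 10 genes from 12.14 to 12.51 in sham and 12.43 to 12.59 after DJB. They were not all level: 6 were higher and 4 lower, with no overlap in 4 and 1 (14.5% and 6.56% of all genes). Among them Slc10a2 rose by 1.73 ± 0.22 (limma adjusted p = 0.0106), the 1 marker of this list that passed (0.393% of all genes rose). Hepatocyte markers, 8 of 8 measured, all had means under 6, with list levels of 4.53 to 5.10 in sham and 4.53 to 4.68 after DJB. Exocrine pancreas (8 genes, 5.07 to 5.46 and 5.23 to 5.35), adipocyte (4 genes, 5.52 to 6.04 and 5.55 to 5.89), smooth muscle (6 genes, 10.47 to 10.99 and 10.83 to 11.09) and goblet cell levels (3 of 5 listed, 10.82 to 11.00 and 10.73 to 10.85) overlapped between groups, as did those of B and plasma cells (3 of 5 listed, 7.34 to 8.52 and 6.40 to 8.14). Macrophage markers were higher in all 5 genes (7.39 to 7.49 in sham, 7.63 to 7.92 after DJB) with no overlap in the list level. The Paneth cell list level did not overlap either (5 genes, 9.62 to 9.78 and 9.82 to 10.16), but its genes went both ways, 3 higher and 2 lower. Reg3g rose by 1.68 (limma adjusted p = 0.00114), and Defa6 and Lyz2 differed by -0.68 and -0.25 without passing. Their part in the differences above was not tested.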

How the data were processed

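Log2 expression values, 29214 rows by 6 arrays, were used as the authors deposited them. RMA is the tool that the submitters' processing notes name, with no version, and it corrects background, quantile normalises and summarises probes. The genome build and scan dates are not given in the sources used here. Quantile normalisation hides a change shared by most genes.

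Rows were named from the platform annotation: 15310 carried 1 symbol, 323 several and 13581 none. A gene with several rows was given its row of highest mean (2 of the 47 genes had 2 rows), and 10 rows with several entries of these families were kept out of the gene counts (1 of them lists Sult1e1 for 2 gene IDs). All 47 symbols matched RefSeq (GRCr8), used for names, gene order and promoters. No value column was left unmapped.

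The test was that of limma 3.58.1, run in R 4.3.3 (lmFit and eBayes, no covariate, two-sided, Benjamini-Hochberg over 14506 genes, threshold 0.05). The fit was tested on simulated data. Genes with a mean under 6 were counted separately. Among the 47, values on each array are given for genes called, genes with a difference of at least 0.5 and no overlap, and the gene of highest signal in each family. Gsto1, Gstp1, Gstk1, Mgst1, Gstm4, Sult1b1, Ces2c, Ces2g, the rows with several symbols and those of Papss2, Aadac, Tst, Abcc2, Abcc3, Nr1h4 and Nr1i3 were added after their values were seen. The remaining genes are given by their difference, and genes called and up to 3 of lowest p were named per list, with Ugdh and Slco2b1 added after their values were seen. The genes and lists were chosen with earlier results of these data known. Figures were drawn with matplotlib 3.10.9.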

Additional observations from a re-analysis of the deposited data

How the results depend on the processing

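Ugt2a3 was lower and passed under all 13 alternatives (-2.76 to -2.33, adjusted p from 0.000985 to 0.0162), and Gstm1, Gstp1, Sult2b1 and Ces1e kept their direction and did not pass in any. The genes called among the 47, 1 as reported, were 2 after another quantile normalisation, after centring or with the mean of a gene's rows (Gsta4 added each time), 3 without genes under 6 (Gsta4 and Gstm2 added), 5 with an intensity trend and robust eBayes (Gsta4, Gstm2, Mgst2 and Ces2a added) and 1 to 2 with 1 array left out. Over all genes, 112 calls became 50 with the replicate number as a block, which kept the Ugt2a3 call, 219 without genes under 6, 313 with trend and robust eBayes and 33 to 108 with 1 array left out. Rats with the same number share only that number: their deviations from the group means correlated at 0.01, -0.12 and -0.15. No sham rat was most like the DJB rat of its own number. Of the genes of the cofactor, export and control lists, 4 passed as reported and 0 to 4 with 1 array left out. These were not always the same genes. The 4 without DJB 1 did not include Abcc3, and the 1 without sham 1 was none of the 4 reported. None of Aadac, Abcc3, Nr1h4 and Nr1i3 passed with the block (adjusted p from 0.0749 to 0.143) or with all rows tested (0.0631 to 0.0977). The Ugt2 median of -0.09 was -2.58 without genes under 6, which leaves Ugt2a3 alone. The Ces median ranged from -0.21 without DJB 1 to 0.018 without DJB 3, where its sign turned by a shift within the spread between rats (SD 0.15). The cause of the other shifts was not tested. Bounds of 5 or 7 for low genes left their count within 1.5 times of 20. Levels near the bottom of the scale limit what the 20 low genes can show.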
